A study of Mus musculus with 2 samples.

Results

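The genes described here encode 7 secreted factors that act on nerve fibres: the neurotrophins Bdnf and Ntf3, the GDNF family ligands Gdnf and Nrtn, the class 3 semaphorins Sema3a and Sema3e, and Tac1, the precursor of the neuropeptide substance P. They were chosen by symbol, as 7 of the 32285 genes measured, with earlier results on the same libraries known, so that their differences are given as descriptions. They were measured in 2 single-cell RNA libraries of mouse dorsal skin on postnatal day 3. The control library had the genotype Wildtype and the induced library the genotype miR-200b induced. Both carried the treatment Dox, and the labels describe neither the construct, nor the cells in which it is active, nor how many animals were pooled. Epidermis and dermis were dissociated apart and combined at 30 parts epidermal to 70 parts dermal cells. RNA molecules were counted near their 3′ ends by unique molecular identifiers (UMIs) with 10x Genomics chemistry.

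Skin is innervated by sensory and sympathetic fibres whose survival and branching depend on factors made by the cells they reach. Neurotrophins bind Trk receptors and the shared receptor Ngfr, GDNF family ligands bind a Gfra co-receptor that engages Ret, and class 3 semaphorins steer or repel axons and vessels through neuropilins and plexins. Substance P acts through Tacr1 and is best known from sensory neurons. The microRNA-200 family is abundant in epithelia, and a microRNA lowers transcripts that pair with its seed.

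The microRNA named in the genotype and the places in the 7 transcripts that match its seed are printed because they bear on which of the factors carry a possible target. In the mature microRNA (RefSeq, GRCm38.p6, chr4:156055685-156055706, minus strand), capitals mark the seed, bases 2 to 8.
mmu-miR-200b-3p: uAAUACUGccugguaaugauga
A search of the annotated 3′ untranslated regions (GENCODE vM21, GRCm38) for CAGTATT, the reverse complement of that seed, on the transcript strand found matches in 2 of the 7 genes. Ntf3 holds a pair of them in its last exon (exon 2 of 2, minus strand), within the 314 bases of its 3′ untranslated region, at chr6:126101471-126101477 and chr6:126101457-126101463. Sema3a holds 1 in exon 17 of 17 (plus strand), at chr5:13601225-13601231, where the base after the match is A. In the lines below, 5′ to 3′ on the transcript strand, capitals mark the seed match, and the windows of the first 2 lines overlap.
Ntf3 first match: cctgtgtacacCAGTATTtggcattcagt
Ntf3 second match: tatttggcattCAGTATTgtcaaggccat
Sema3a match: tctaattaactCAGTATTaacttctcacc
The 3′ untranslated regions of Bdnf (2855 bases), Gdnf (2743), Nrtn (87), Sema3e (3899) and Tac1 (545) hold no such match, which says only that these letters are not in the annotated region. Among all 20869 genes with an annotated 3′ untranslated region, 13.3% hold at least 1 match, and the median length is 966 bases. Bdnf and Gdnf each hold 1 match to the seed of the sister microRNA miR-200a, CAGTGTT, and the other 5 genes hold none.

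Of 9072 deposited barcodes in the control library, 5178 passed the filter of at least 1000 UMIs, at least 500 genes and under 15% mitochondrial UMIs, and of 9114 in the induced library 5258 passed. They held 95902959 and 113132947 UMIs, and 10 barcodes were found in both libraries. Clustering gave 22 epithelial clusters (4225 control and 4423 induced cells) and 10 dermal clusters (953 and 835 cells). Class names are reconstructions from marker genes and stand for fibroblast-like, melanocyte-like cells and so on; 6 epithelial clusters stayed unnamed. In 18 of the 22 epithelial clusters at least 80% of the cells came from 1 library, so a class can be made of different clusters in the 2 libraries. In basal epidermis these were C5 and C27 in the control and C0 in the induced library, and in the outer follicle (outer root sheath, upper follicle and companion layer) mostly C4, C6 and C10 against C3. Gm13648, the annotated transcript that spans the miR-200b locus, was at 2.33 CPM (UMIs of the gene per 1000000 UMIs of the cells summed) in control and 527.8 CPM in induced epithelial cells, and at 0.0902 CPM (1 UMI) and 63.9 CPM in dermal cells. With 1 library per group no difference between the libraries could be tested. Ranges in brackets are 95% intervals from UMI counts and cover counting error only, not the spread between animals.

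The factors differed in their places in the skin, and some places were shared (bar plot of the 7 factors by class). Nrtn and Sema3e were higher in epithelial cells, Sema3a, Tac1 and the rare Gdnf in dermal cells, and Bdnf and Ntf3 were found on both sides at similar levels in the control library. For Gdnf this holds for the source averages only. Basal epidermis had 3.48 CPM in control and 3.39 CPM in induced cells, against 1.99 and 2.54 CPM in dermal cells, with overlapping ranges. In the control library 98.7% of the Sema3e UMIs, 96.3% of the Nrtn UMIs and 90.1% of the Bdnf UMIs lay in epithelial cells, which also made up most of the UMIs sequenced. Scaled to those totals, Sema3e was 9.87-fold higher in control epithelial than dermal cells and Nrtn 3.43-fold. Bdnf was 1.19-fold higher in epithelial cells, at 17.3 against 14.6 CPM, and Ntf3 stood at 11.6 CPM in both. Sema3a was 3.72-fold and Tac1 139.1-fold higher in dermal than in epithelial cells of the control library.

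**Figure D1:**
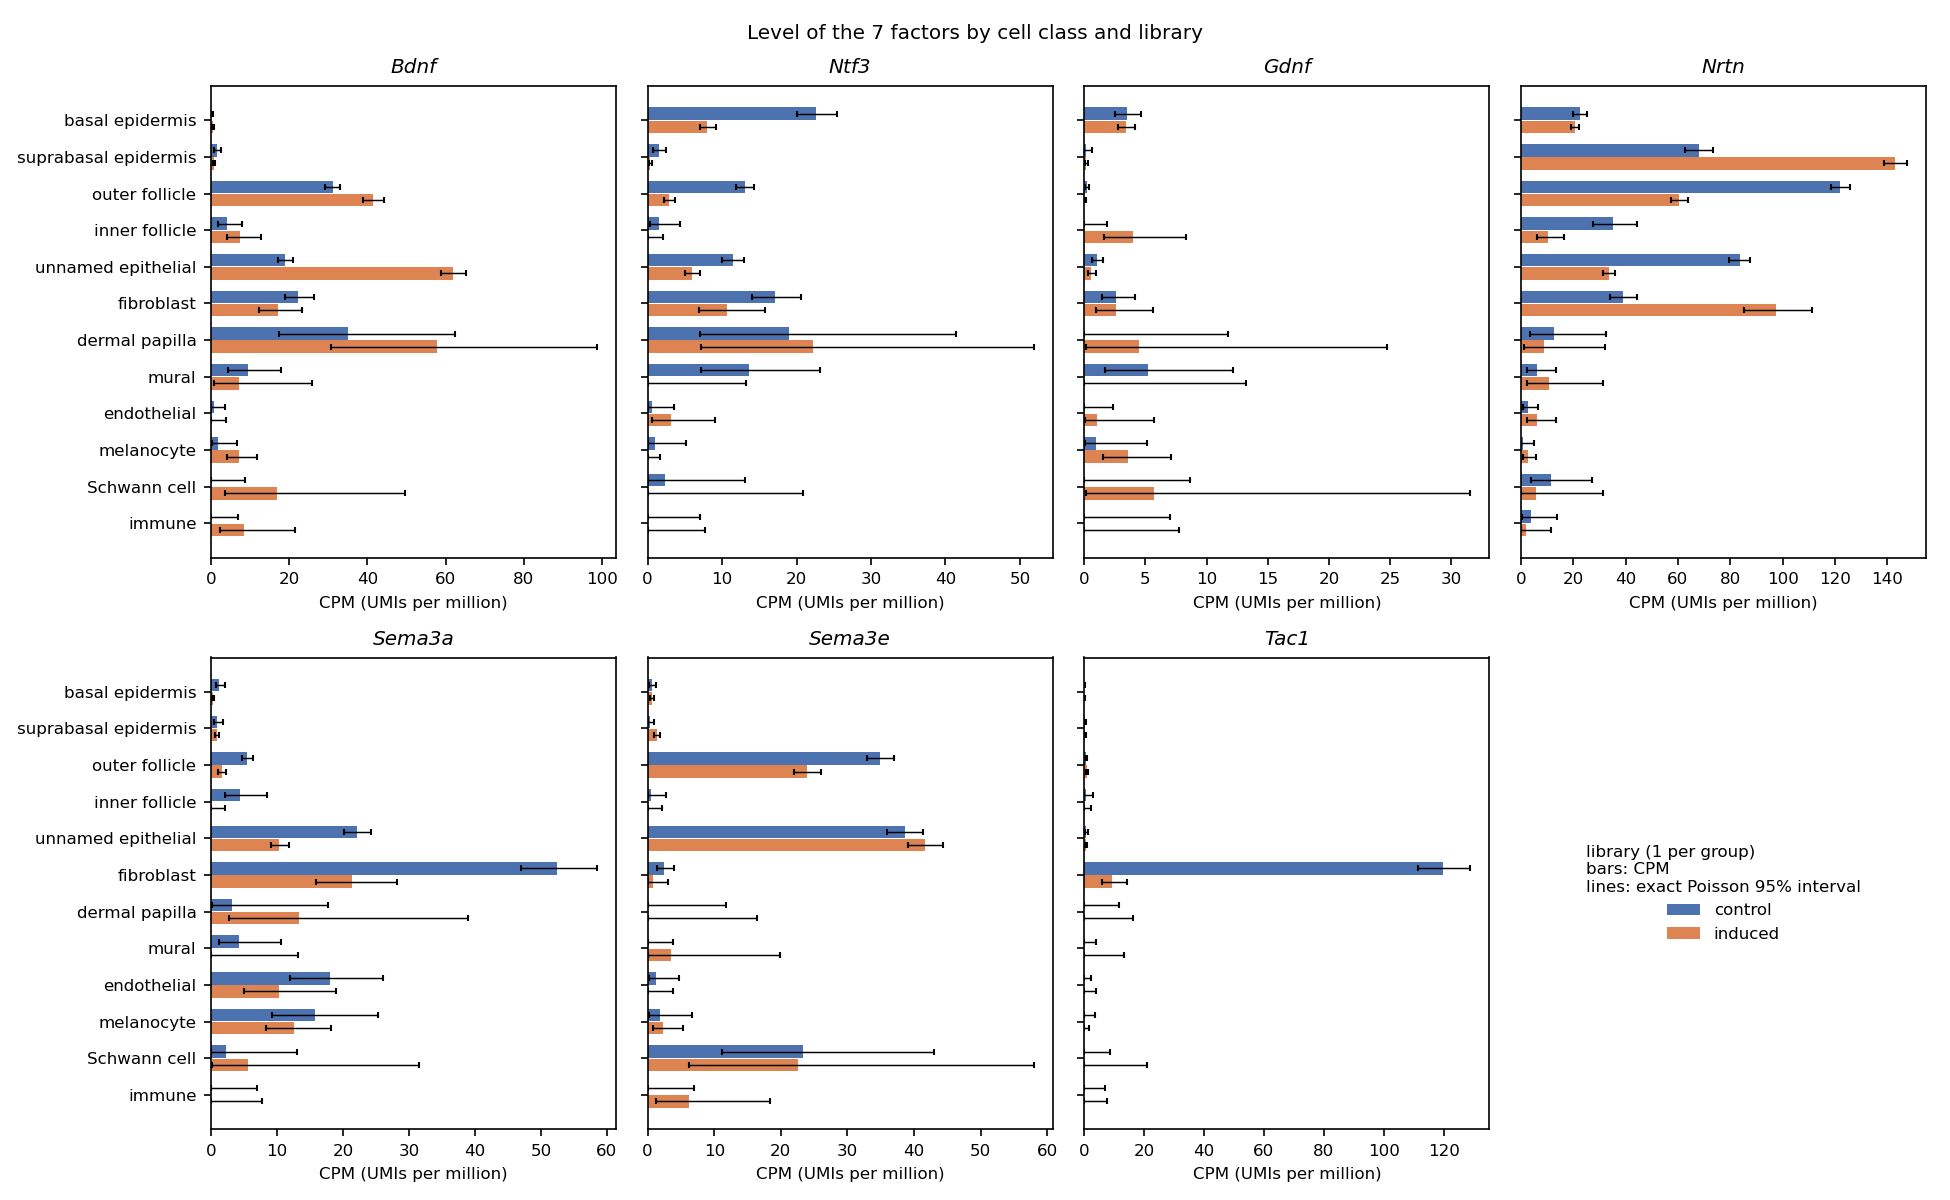
Level of each factor (horizontal axis, CPM) in 12 cell classes (vertical axis), with 1 bar per library and exact Poisson 95% intervals as lines; sebaceous gland cells, of which the induced library had 3, are not drawn. Tac1 stands at 119.9 CPM in control and 9.42 CPM in induced fibroblasts and near 0 elsewhere, while Nrtn is high in the outer follicle of the control library and in the suprabasal epidermis of the induced library.

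Between the libraries, a gene with at least 20 UMIs was counted as differing when its level differed at least 2-fold and the interval of the ratio left out equal levels. All 7 factors reached 20 UMIs in both sources. In epithelial cells 2 of them, Ntf3 and Sema3a, were lower in the induced library by this rule, where 9.75% of 16134 genes were, and 0 were higher, where 11.5% were. In dermal cells 3 were lower (Ntf3, Sema3a and Tac1; 7.37% of 13835 genes) and 0 were higher (8.12%). The median log2 ratio of the 7 was -0.40 in epithelial and -0.33 in dermal cells, against -0.06 and 0.04 over all genes counted. Over all cells together the same 3 were lower, where 11.9% of 17143 genes were, and 0 higher, where 9.36% were. Ntf3 and Sema3a, which hold a seed match, were lower in each source, and Tac1, without a match, was lower in dermal cells. Dermal Ntf3 had a log2 ratio of -1.23 over all dermal cells but of -0.67 in fibroblasts. The dermal mix differed as well. Fibroblasts were 578 of 953 control and 324 of 835 induced dermal cells, and melanocytes, with 1 and 0 Ntf3 UMIs, were 83 and 253. The part of this mix in the dermal ratio was not tested. Sema3a was not lower in every class or cluster. It was at 0.902 and 0.862 CPM in suprabasal epidermis, and past 2-fold higher in the induced cells of fibroblast cluster C8. Whether the matches bear on the levels was not tested. The median gene with at least 100 UMIs itself stood off equal levels by more than 0.1 on the log2 scale in some units: -0.12 over all cells, -0.15 in the inner follicle, -0.17 in C16, -0.18 in C17 and -0.11 in C9.

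**Figure D2:**
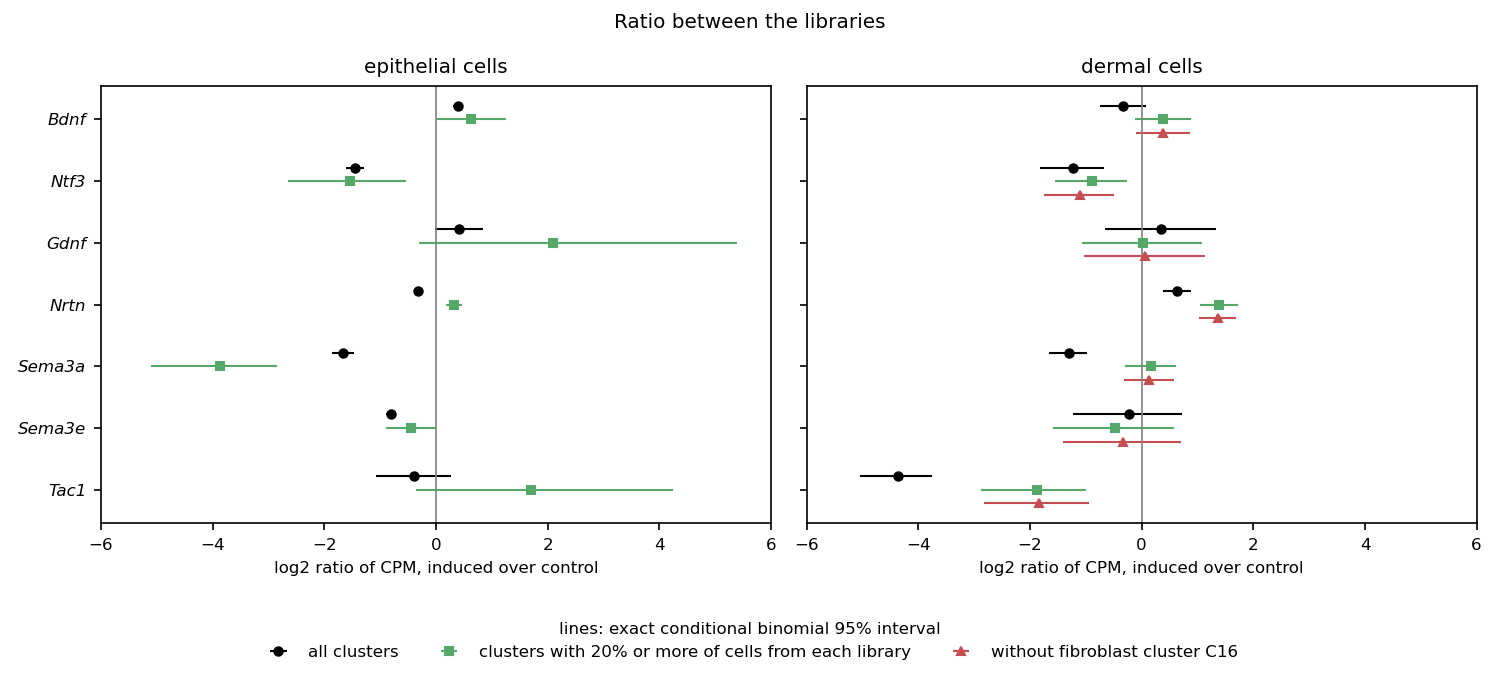
log2 ratio of CPM, induced over control (horizontal axis), for each factor (vertical axis) in epithelial cells (left) and dermal cells (right), over all clusters, over clusters with at least 20% of their cells from each library, and without fibroblast cluster C16; lines are exact 95% intervals. Ntf3 lies below 0 under each choice shown, whereas dermal Sema3a moves from -1.31 to 0.14 without C16 and epithelial Nrtn from -0.33 to 0.33 in the clusters common to both libraries.

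Ntf3 (ENSMUSG00000049107, chr6:126101412-126166910, minus strand) encodes neurotrophin-3, the ligand of Ntrk3, which supports proprioceptive and touch-sensing neurons. It was lower in the induced library in the epithelial classes that had it. Basal epidermis stood at 22.6 CPM in the control (286 UMIs in 635 cells; 20.1 to 25.4) and 8.03 CPM in the induced library (239 UMIs in 1227 cells; 7.04 to 9.11), ranges that do not overlap, with a log2 ratio of -1.49 (-1.75 to -1.24). Control basal cells lay in C5 at 22.3 CPM and in the dividing cluster C27 at 24.3 CPM, and induced ones in C0 at 8.05 CPM, so no basal cluster compares the libraries within itself. Outer follicle cells stood at 13.04 and 2.91 CPM, a log2 ratio of -2.16 (-2.56 to -1.79). By the 2-fold rule 2 of the 5 factors counted in basal epidermis were lower (Ntf3 and Sema3a), where 8.54% of genes were, and 0 higher, where 9.4% were. In the outer follicle 3 of 6 were lower (Ntf3, Nrtn and Sema3a; 7.94% of genes) and 0 higher (10.9%).

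The companion-like cluster C17 (leading genes Pinlyp and Krt75), which held 116 control and 121 induced cells, had Ntf3 at 4.42 CPM (30 UMIs) and 1.40 CPM (5 UMIs). Its log2 ratio was -1.66 (-3.38 to -0.28). Median depths in C17 were 43432.5 UMIs in control and 15250 in induced cells. With each cell thinned to 2000 UMIs, 1 of 115 control and 1 of 117 induced cells had a Ntf3 UMI, too few to compare. In fibroblasts Ntf3 stood at 17.1 CPM in control and 10.7 CPM in induced cells, with a log2 ratio of -0.67 (-1.36 to -0.03), under 2-fold. The highest fibroblast level was in C8 (leading genes Mfap4, Coch and Eln), at 27.4 and 22.2 CPM with overlapping ranges. Mural cluster C31 (38 control cells, led by Mef2c, Myl9 and Acta2) had 54.0 CPM in the control from 13 UMIs, and with 2 induced cells it gives no comparison. Dermal papilla cells had 19.1 and 22.2 CPM from 6 and 5 UMIs.

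Bdnf (ENSMUSG00000048482, chr2:109674700-109727007, plus strand), the brain-derived neurotrophic factor and ligand of Ntrk2, was found in the outer follicle, in unnamed epithelial clusters and in fibroblasts, and was higher in epithelial cells of the induced library. Outer follicle cells stood at 31.1 CPM in the control (29.2 to 33.0) and 41.5 CPM in the induced library (38.9 to 44.3), without overlap, a 1.34-fold difference. The unnamed epithelial clusters stood at 19.0 CPM in the control (17.16 to 20.98) and 61.9 CPM in the induced library (58.7 to 65.2), a 3.26-fold difference, and held 57.4% of the induced Bdnf UMIs. They were mainly C1, C15 and C19 in the control and C2, C12 and C13 in the induced library, so the class compares different clusters. Fibroblasts had 22.4 and 17.1 CPM with overlapping ranges. Clusters C4 (519 control and 59 induced cells, led by Tbx1 and Lhx2) and C6 (525 and 35 cells, led by Sfrp1 and Tbx1) had 55.7 and 86.0 CPM in the control library and 140.1 and 183.5 CPM in their few induced cells. Of the mainly induced clusters, C3 had 69.2 CPM and the unnamed C2 (Pthlh, Tgfb2; 700 induced cells and 1 control cell) 100.8 CPM. Upper follicle cluster C9, companion-like C17 and C20 were at most at 9.76 CPM in either library.

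Epidermis hardly had any Bdnf, with 1 and 12 UMIs in the basal and 13 and 20 in the suprabasal class. To compare shares of cells, each cell was thinned to 2000 UMIs, which left out 72 control and 317 induced epithelial and 12 and 89 dermal cells. A Bdnf UMI was then found in 7.57% of control (6.38 to 8.90) and 7.61% of induced outer follicle cells (6.10 to 9.34), shares that did not differ beyond counting error. In the unnamed epithelial clusters the thinned shares were 3.39% (2.44 to 4.57) and 11.01% (9.20 to 13.04), and 15.4% and 28.0% without thinning. Thinning left out 45 of the 1256 control and 264 of the 1336 induced cells of these clusters. Among them C13 had a median depth of 1068 UMIs, so the thinned induced share covers fewer of its clusters. Basal epidermis, with 0 of 634 control cells and 1 of 1216 induced cells (0.0822%), gives the background. Without thinning the outer follicle shares were 20.4% and 26.6%, at median depths of 13030 and 16134 UMIs. Over all epithelial cells Bdnf was at 17.3 and 22.8 CPM, and the cells with 10 or more Bdnf UMIs numbered 15 in the control and 46 in the induced library. Dermal papilla cells had 34.9 CPM (11 UMIs) and 57.7 CPM (13 UMIs), with overlapping ranges.

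**Figure D3:**
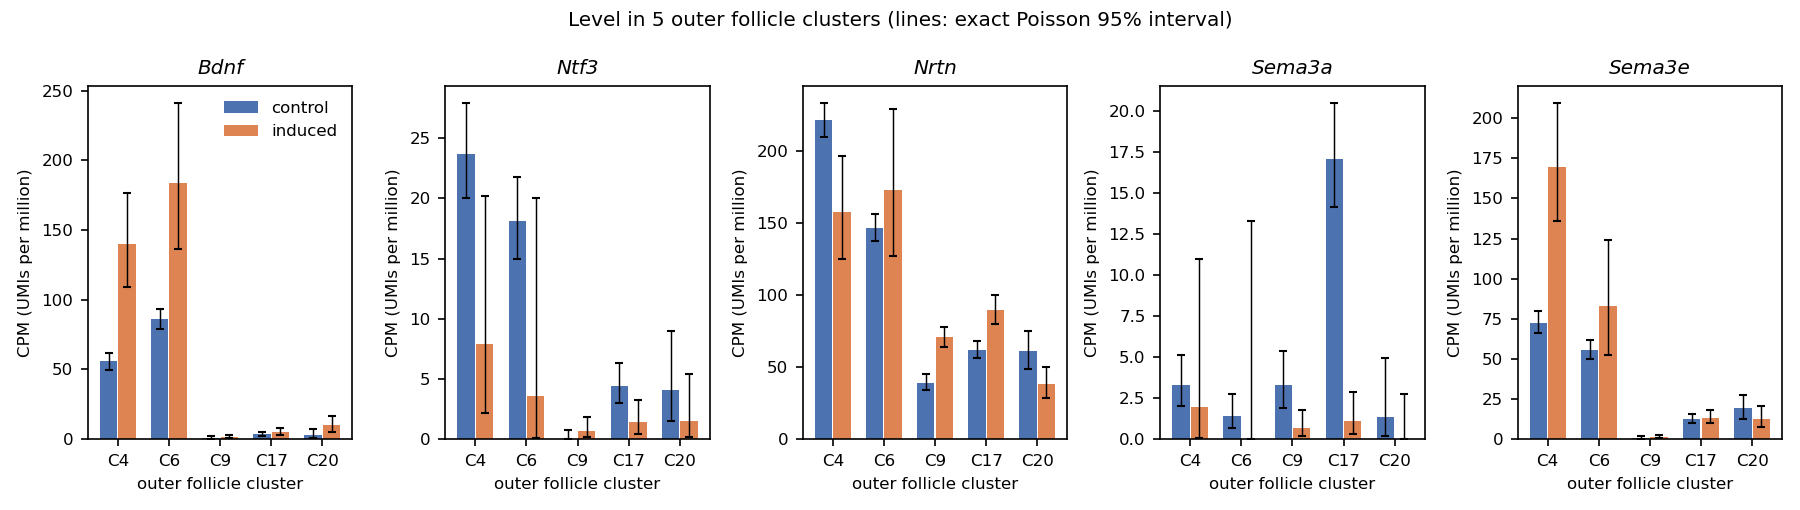
Level (vertical axis, CPM) of 5 of the factors in 5 outer follicle clusters (horizontal axis), 1 bar per library, with exact Poisson 95% intervals. Bdnf and Sema3e are highest in C4 and C6, Sema3a is highest in the control cells of C17, at 17.1 CPM, and Nrtn differs in both directions across clusters.

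Gdnf (ENSMUSG00000022144, chr15:7810846-7837575, plus strand), the founding ligand of its family, was rare. It had 96 UMIs in the control and 141 in the induced library over all cells. Basal epidermis held 45.8% of them in the control and 71.6% in the induced library, at 3.48 CPM (2.53 to 4.67) and 3.39 CPM (2.76 to 4.12). These ranges overlap, and the interval of the log2 ratio, -0.56 to 0.51, leaves out a 2-fold difference in either direction as far as counting error goes. The same cells were those with the most Ntf3 among the named epithelial classes. Outer follicle cells had 7 and 0 Gdnf UMIs, and the 7 UMIs of the induced inner follicle lay in 1 cell. Scaled to the UMI totals, Gdnf was higher in dermal than in epithelial cells, 2.28-fold in the control and 2.18-fold in the induced library. The dermal level rested on 22 and 17 UMIs. Fibroblasts had 2.58 CPM (16 UMIs) and 2.57 CPM (6 UMIs), and melanocytes 0.927 CPM (1 UMI) and 3.59 CPM (8 UMIs).

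Nrtn (ENSMUSG00000039481, chr17:56751325-56757530, minus strand) encodes neurturin, which acts through Gfra2 and Ret. It had the most UMIs of the 7 factors, 7190 in the control and 7175 in the induced library, and its place differed between them. In the control library the outer follicle held 57.4% of Nrtn UMIs at 121.9 CPM (118.3 to 125.7), and in the induced library it held 19.1% at 60.4 CPM (57.2 to 63.7). Suprabasal epidermis went the other way, from 67.9 CPM (62.6 to 73.5) and 8.37% of Nrtn UMIs to 142.9 CPM (138.6 to 147.4) and 57.8%. By the 2-fold rule 2 of 5 factors counted, Nrtn and Sema3e, were higher in induced suprabasal epidermis, where 10% of genes were, and 1 was lower (Ntf3), where 7.44% were. These classes were held by different clusters in the 2 libraries, the suprabasal one by C18 in the control and by C7 and C25 in the induced library.

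Within the suprabasal class the level followed the cluster. Cluster C25, led by Lor and Flg, genes of the granular layer, had 473.4 CPM in 15 control cells and 431.3 CPM in 119 induced cells, a log2 ratio of -0.13 (-0.28 to 0.02). The clusters led by Krt1 and Krt10 had less, 22.1 CPM in C18 (215 control cells and 0 induced) and 51.0 CPM in the induced cells of C7 (5 and 537 cells). C25 made up 15 of the 235 control and 119 of the 656 induced suprabasal cells, and its own Nrtn level did not differ beyond counting error. In C4, the outer follicle cluster with the highest Nrtn in the control library, the levels were 221.4 and 157.9 CPM, and in C6 146.7 and 172.7 CPM with overlapping ranges. In upper follicle cluster C9 (Krt79, Defb6) Nrtn was 39.2 CPM in control and 70.6 CPM in induced cells, and in C17 62.1 and 89.6 CPM, both without overlap, whereas in C20 it was 61.0 and 38.3 CPM with ranges that overlap at 49.0 to 50.3 CPM. However, 10 cells held 64.6% of the Nrtn UMIs of control C9 cells and 54.7% of those of induced C17 cells. With cells thinned to 2000 UMIs the shares overlapped. They were 4.57% (1.99 to 8.81) and 10.1% (6.16 to 15.3) in C9. In C17 they were 10.4% (5.51 to 17.5) and 13.7% (8.02 to 21.3). In C20, 0 of the 2 factors counted were past 2-fold (6.14% of genes higher, 5.28% lower).

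Over all epithelial cells Nrtn was at 81.7 CPM in the control (79.7 to 83.6) and 65.1 CPM in the induced library (63.6 to 66.6), a log2 ratio of -0.33 (-0.38 to -0.28). In the 4 epithelial clusters with at least 20% of their cells from each library (C9, C17, C20 and C21) it was 51.0 and 64.1 CPM, a log2 ratio of 0.33 (0.18 to 0.47). The direction over all epithelial cells thus depended on the clusters compared. In the inner follicle (C21, led by Krt25 and Krt71) Nrtn was 35.1 and 10.3 CPM, the 1 of 2 factors counted that was past 2-fold there, where 8.25% of genes were lower and 9.79% higher. That class changed with the clustering: with the stricter cell filter it stood at 120.9 and 11.5 CPM. The thinned share of epithelial cells with a Nrtn UMI was 14.6% in the control (13.5 to 15.7) and 8.09% in the induced library (7.27 to 8.96), and 51.7% and 42.9% without thinning, at median depths of 16123 and 21082 UMIs. Dermal cells had a thinned share of 3.72% in the control (2.60 to 5.14) and 6.84% in the induced library (5.13 to 8.89). The induced range overlaps that of epithelial cells. Fibroblasts among them had 5.24% in the control (3.57 to 7.40) and 15.9% in the induced library (11.9 to 20.6).

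Nrtn in dermal cells lay mostly in fibroblasts, at 38.9 CPM in the control (34.2 to 44.2) and 97.6 CPM in the induced library (85.4 to 111.2), a 2.51-fold difference. Of 6 factors counted in fibroblasts it was the 1 past 2-fold upward, where 7.22% of genes were higher, and 2 were lower (Sema3a and Tac1), where 6.5% were. Nrtn was higher in the induced cells of 2 of the 3 fibroblast clusters. C8 stood at 39.9 CPM (83 UMIs in 222 cells) and 198.8 CPM (188 UMIs in 148 cells), ranges far apart. In C14 (Col1a1, Dcn) it was 8.88 CPM (9 UMIs) and 25.7 CPM (27 UMIs), and in C16 48.0 and 38.5 CPM with overlapping ranges. Without C16, the third fibroblast cluster, the dermal log2 ratio was 1.36 in place of 0.63. Summed keratins and other epithelial markers also stood higher in induced than in control cells of both clusters, from 767.5 to 1393 CPM in C8 and from 764.9 to 1575 CPM in C14. The sums cover 12 listed genes, all with UMIs in each, and the genes were not compared singly. The part of these markers in the result was not tested.

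Sema3a (ENSMUSG00000028883, chr5:13125414-13602565, plus strand) encodes semaphorin 3A, which repels sensory axons through neuropilin-1 and A-type plexins. It was lower in the induced library among epithelial cells, and in the dermis the comparison hung on 1 cluster. Epithelial levels were 9.15 CPM in the control (8.52 to 9.82) and 2.89 CPM in the induced library (2.58 to 3.24), without overlap, a 3.16-fold difference. A wide gap was seen in C17, at 17.1 CPM (116 UMIs in 116 cells) and 1.12 CPM (4 UMIs in 121 cells), a log2 ratio of -3.93 (-5.83 to -2.54). There 10 control cells held 44.8% of the Sema3a UMIs, and the control cells were deeper, with a median of 43432.5 against 15250 UMIs. After thinning, 1 of 115 control and 0 of 117 induced cells had a Sema3a UMI, too few to compare. By the 2-fold rule Ntf3 and Sema3a were the 2 of 5 factors lower in C17, where 10.8% of genes were, and 0 were higher (6.94%). Upper follicle cluster C9 had 3.32 CPM (16 UMIs) and 0.703 CPM (4 UMIs), the 1 of 2 factors lower there, where 7.3% of genes were, with 0 higher (6.35%). Over the outer follicle as a class Sema3a was 5.44 and 1.59 CPM, a log2 ratio of -1.78, which was -0.56 with the stricter cell filter and its own clusters.

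Most epithelial Sema3a lay outside the named follicle classes. Unnamed cluster C1 (Fst, Aldh3a1; 767 control and 30 induced cells) had 23.7 CPM in the control and 46.1 CPM (12 UMIs) in the few induced cells, ranges that overlap. The unnamed and mainly induced C2 had 14.5 CPM. Sebaceous gland cells of the control library had 15.1 CPM in 221 cells, and the 3 induced ones had no UMI, with an interval that reaches 68.5 CPM. Melanocytes, at 15.8 and 12.6 CPM, and endothelial cells, at 17.98 and 10.3 CPM, had ranges that overlap between the libraries. Sema3a was the 1 factor counted in each and was past 2-fold in neither, where 4.73% and 5.54% of genes were higher and 3.62% and 10.2% lower. In endothelial cells the 28 control UMIs came from 5 cells.

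Fibroblasts had Sema3a at 52.5 CPM in the control (46.9 to 58.5) and 21.4 CPM in the induced library (15.9 to 28.2). Most of that difference lay in cluster C16, led by Lum, Col3a1 and Itih5. It held 238 control and 25 induced cells, with 91.6 CPM (286 UMIs) and 35.6 CPM (12 UMIs). In C8 Sema3a was lower in the control, 12.03 against 27.5 CPM, and in C14 it was 14.8 and 11.4 CPM with overlapping ranges. Without C16 the dermal levels were 11.4 and 12.6 CPM, a log2 ratio of 0.14 (-0.31 to 0.59), so the lower dermal level of the induced library went away. By the 2-fold rule C8 had 2 of 5 factors higher (Nrtn and Sema3a), where 5.13% of genes were, and 1 lower (Tac1), where 5.23% were.

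Sema3e (ENSMUSG00000063531, chr5:14025276-14256689, plus strand) encodes semaphorin 3E, which signals through Plxnd1 and patterns vessels as well as axons. It was found in the outer follicle, in the unnamed epithelial clusters and in the sebaceous gland. The unnamed clusters stood at 38.6 CPM in the control and 41.7 CPM in the induced library, with 35.9% and 60.8% of the Sema3e UMIs. Outer follicle cells stood at 34.9 CPM in the control (1180 UMIs) and 24.0 CPM in the induced library (544 UMIs), with ranges that do not overlap, under 2-fold apart. As with Bdnf, C4 and C6 were the highest of the outer follicle clusters: C4 had 72.6 CPM in control and 169.7 CPM in its 59 induced cells, and C6 55.6 and 82.8 CPM. C17 had 12.7 and 13.4 CPM. The lower class level in the induced library thus stood beside levels in C4 that were higher there. The unnamed clusters C1 (control) and C2 (induced) had 47.8 and 63.7 CPM, and the sebaceous cluster C28 (66 control cells, led by Cyp2g1 and Scd1) had 50.8 CPM. In C28, 10 control cells held 70.7% of the Sema3e UMIs.

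Over all epithelial cells Sema3e was at 25.8 and 14.8 CPM, a log2 ratio of -0.80 (-0.90 to -0.71). Its thinned share of epithelial cells was 6.14% (5.43 to 6.91) and 4.04% (3.46 to 4.69), against 0.213% and 0.134% of dermal cells. Unthinned, the epithelial shares were 26.1% and 16.9%. Schwann cells, the glia of peripheral nerves, had 23.4 CPM (10 UMIs in 40 cells) and 22.6 CPM (4 UMIs in 21 cells). Basal epidermis had under 1 CPM in both libraries.

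Tac1 (ENSMUSG00000061762, chr6:7554879-7565834, plus strand) was confined among the dermal classes to fibroblasts, which held all 745 control and all 22 induced dermal UMIs. Control fibroblasts stood at 119.9 CPM (111.4 to 128.8) and induced ones at 9.42 CPM (5.90 to 14.3), a log2 ratio of -3.67 (-4.35 to -3.06). The thinned share of fibroblasts with a Tac1 UMI was 11.5% (9.04 to 14.4) and 1.36% (0.371 to 3.44), against 2 of 4153 control and 0 of 4106 induced epithelial cells. Without thinning the fibroblast shares were 26.6% and 3.70%, at median depths of 9920 and 6503 UMIs. The other 6 factors were found in more than 1 dermal class.

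C16 held 687 of the 745 control UMIs, in 124 of its 238 cells, at 220.0 CPM (203.9 to 237.1) and with up to 27 UMIs in a cell. Its 25 induced cells had 9 UMIs in 6 cells, 26.7 CPM (12.2 to 50.7). The same direction held in the other fibroblast clusters at lower levels. In C14 Tac1 was 27.6 CPM (28 UMIs) and 12.4 CPM (13 UMIs), a log2 ratio of -1.16 (-2.23 to -0.17). In C8 it was 14.4 CPM (30 UMIs) and 0 of 148 cells, at least 4.55-fold lower when 3 UMIs stand for the induced 0. Without C16 the dermal levels were 7.29 and 2.04 CPM, a log2 ratio of -1.83 (-2.83 to -0.95) in place of -4.36. By the 2-fold rule Sema3a and Tac1 were the 2 of 5 factors lower in C16, where 7.94% of genes were, and 0 were higher (6.23%). In C14 Nrtn was the 1 of 4 higher (9.26% of genes) and Tac1 the 1 lower (5.68%).

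The induced cells of C16 also carried more epithelial RNA: the 12 listed epithelial markers, all with UMIs, summed to 4806 CPM in its control and 14501 CPM in its induced cells, and Gm13648 stood at 0.320 and 349.9 CPM. In C16 cells with under 2000 CPM of keratins Tac1 was 267.6 CPM in 199 control cells and 51.0 CPM (5 UMIs) in 11 induced cells. Sensory neurons, whose axons run through the dermis, are the textbook source of Tac1. Of 7 listed sensory neuron genes 3 had UMIs in control C16 cells (33.0 CPM in sum) and 1 in induced ones (100.8 CPM, all Stmn2); Snap25, Prph and Nefl were at 0 in all 3 fibroblast clusters of both libraries. Fibroblast markers (8 of 8 with UMIs) summed to 64268 and 23173 CPM in C16. Since C16 is mostly 1 library, a cell type and a property of that library cannot be told apart in it.

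**Figure D4:**
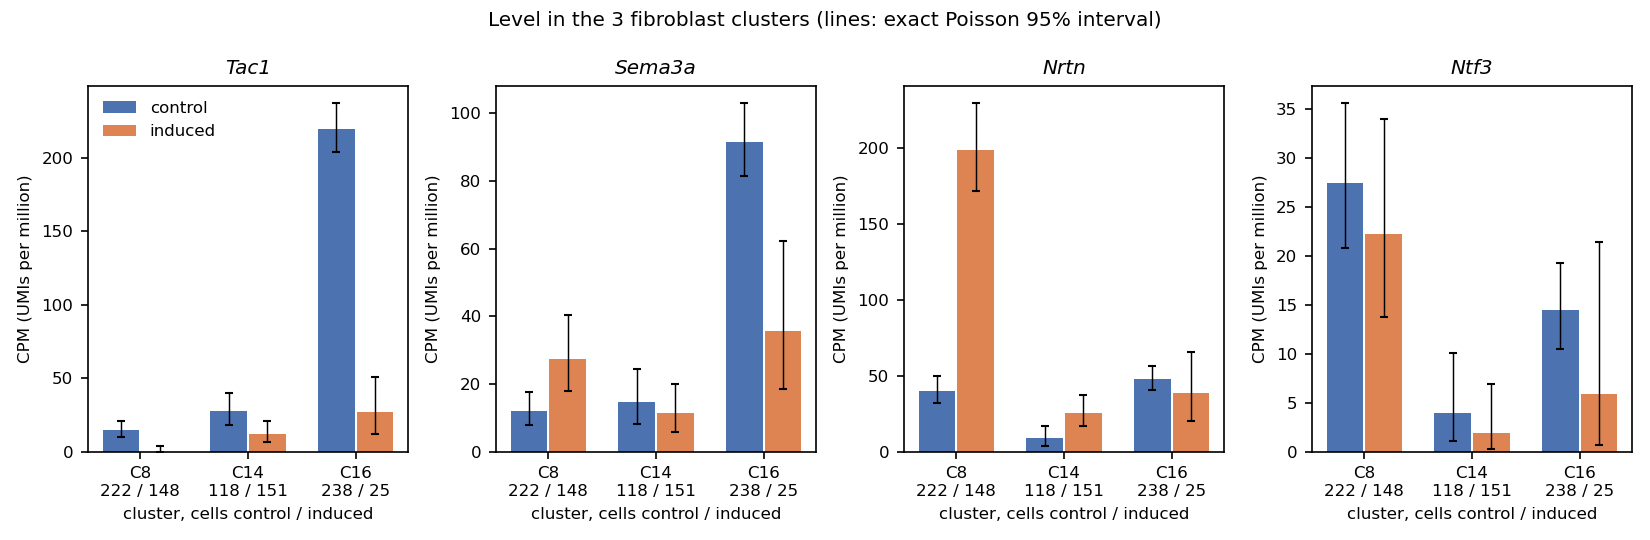
Level (vertical axis, CPM) of Tac1, Sema3a, Nrtn and Ntf3 in the 3 fibroblast clusters (horizontal axis, with the number of control and induced cells), 1 bar per library, lines as exact Poisson 95% intervals. Tac1 and Sema3a peak in the control cells of C16, and Nrtn in the induced cells of C8.

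Some factors shared cells. Among control fibroblasts 84 of the 158 cells with a Sema3a UMI also had Tac1, 53.2% against 26.6% of all fibroblasts, and 52.1% of the cells with Bdnf had Tac1. In epithelial cells with Bdnf, 56.5% also had Sema3e in the control library, against 26.1% of all, and 50.4% in the induced library, against 16.9% of all. Sema3a and Sema3e shared epithelial cells as well, 37.9% of the Sema3a cells in the control and 53.4% in the induced library. Among control epithelial cells with Bdnf 25.5% had Ntf3, against 16.2% of all, and among induced ones 9.82%, against 8.34% of all. These shares are unthinned, and deeper cells have more of every pair, so they describe where UMIs were seen together and no more.

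The genes whose levels most resembled each factor were sought over the 7 named classes with at least 50 cells in each library, 14 points in all, on log2(CPM + 10). The unnamed epithelial clusters were left out. They held 57.4% of the Bdnf, 60.8% of the Sema3e and 60% of the Sema3a UMIs of the induced library. The points share 2 libraries and their depth, and r is descriptive. Bdnf was nearest to Lgr5, a stem cell marker of the follicle (Pearson r = 0.95), ahead of Trpm3 (0.92) and Adamts19 (0.91). Ntf3 was nearest to Col8a1 (0.93), Ppp1r14a (0.92) and Hoxc5 (0.91), and Gdnf to Zfp784 (0.81), Tusc1 (0.80) and Fbxl5 (0.78). Nrtn was nearest to Cebpb, a transcription factor of differentiating keratinocytes (0.90), Nupr1 (0.89) and Kdm5b (0.87). Sema3a was nearest to Fkbp7 (0.97), Adgra2 (0.96) and Dpm3 (0.96), and Sema3e to Tsix (0.99), Gpx2 (0.99) and Gm32255 (0.98). Tsix reached at most 1.45 CPM and Trpm3 1.10 CPM in any class, so their r rests on differences near the value of 10 CPM added. The same limit holds for Gdnf, which reached at most 4.02 CPM, in the induced inner follicle, from 7 UMIs in 1 cell. Tac1 was nearest to Opcml (0.999), Ccdc42 (0.998) and Ece2 (0.996), which were also highest in fibroblasts. Outside fibroblasts, which had 119.9 and 9.42 CPM, Tac1 was at most at 0.749 CPM in these classes. With 10 CPM added, its r thus rests mainly on the point of control fibroblasts. Ccdc42 went from 77.3 to 8.99 CPM in fibroblasts, and Opcml from 21.9 to 3.85 CPM, levels that compare different mixes of fibroblast clusters.

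The other ligands of the same families, among 62 further pathway genes on fixed lists, differed in both directions. In epithelial cells Ntf5 (neurotrophin-4/5) stood at 16.5 CPM in the control and 24.2 CPM in the induced library, within 2-fold. Artn, the ligand of Gfra3, was at 2.33 and 5.84 CPM in epithelial cells, the 1 GDNF family ligand of 3 counted that was past 2-fold upward. Of the 7 class 3 semaphorins 4 were lower in induced epithelial cells, where 9.75% of all genes were, and 0 higher, where 11.5% were: Sema3a, Sema3b (5.82 and 1.64 CPM), Sema3d (7.06 and 2.09 CPM) and Sema3g (0.330 and 0.132 CPM). The median log2 ratio of the 7 was -1.33. Sema3c (30.1 and 33.2 CPM) and Sema3f (44.4 and 33.2 CPM) were within 2-fold. In dermal cells 2 of the 7 were lower, where 7.37% of all genes were, Sema3a and Sema3c (51.5 and 25.5 CPM). Of 5 other skin neuropeptide genes counted in epithelial cells 3 were higher in the induced library, Npy (0.165 and 3.65 CPM), Calcb (0.0825 and 1.32 CPM) and Gal (0.0707 and 0.695 CPM), and 1 was lower, beside 11.5% and 9.75% of all genes. That gene, Penk, the precursor of enkephalins, was lower in epithelial cells (52.9 and 19.3 CPM) and higher in fibroblasts of the induced library (110.1 and 590.0 CPM), the class in which Tac1 was 12.7-fold lower. Cluster C16 made up 238 of the 578 control and 25 of the 324 induced fibroblasts, so fibroblast class levels compare different mixes of clusters. The Penk log2 ratio was 2.42 over the class, but 0.63 in C8, 1.88 in C14 and 1.20 in C16. In fibroblasts 3 of 6 class 3 semaphorins counted were lower, where 6.5% of all genes were, Sema3a, Sema3b (19.8 and 5.14 CPM) and Sema3c (64.1 and 20.6 CPM).

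Many of the receptors were highest in cells other than keratinocytes (heat map of receptors by class). The neurons that carry most of them have their cell bodies outside the skin, and Tacr1, the substance P receptor, had 6 UMIs in the control and 12 in the induced library. Schwann cells held the GDNF family co-receptors, Gfra3 at 277.9 CPM in control and 248.9 CPM in induced cells and Gfra2, which binds neurturin, at 212.5 and 175.4 CPM, with Ngfr at 172.8 CPM (74 UMIs) and 67.9 CPM (12 UMIs). Ret had 62 and 75 UMIs over all cells, mostly in the outer follicle. Endothelial cells held the semaphorin receptors Nrp1 (425.7 and 302.3 CPM) and Plxnd1, the receptor of Sema3e (308.2 and 198.4 CPM). Nrp2 was highest in the dermal papilla (469.9 and 435.3 CPM) and in the inner follicle (329.9 and 392.6 CPM).

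In fibroblasts Ntrk2, the Bdnf receptor, was 6.60 CPM in the control and 43.7 CPM in the induced library, and Ntrk3, the Ntf3 receptor, 3.70 and 17.1 CPM. Of 5 neurotrophin receptors counted there, 3 were higher (Ntrk2, Ntrk3 and Ngfr) and 1 lower (Sort1), where 7.22% and 6.5% of genes were. By cluster, 1 of 5 was higher in C8 (Ntrk2; 5.13% of genes) and 2 of 3 in C14 (Ntrk2 and Ntrk3; 9.26%). In C16, 0 of 2 were higher (6.23% of genes) and 1 was lower (Sorcs2; 7.94%). Gfra4 was lower, 36.4 and 17.1 CPM. The 7 receptors of class 3 semaphorins were all within 2-fold in fibroblasts, with a median log2 ratio of 0.01. In epithelial cells 3 of 5 GDNF family receptors were lower in the induced library, where 9.75% of all genes were, each from under 1 CPM in the control, Gfra3 at 0.920 and 0.207 CPM.

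**Figure D5:**
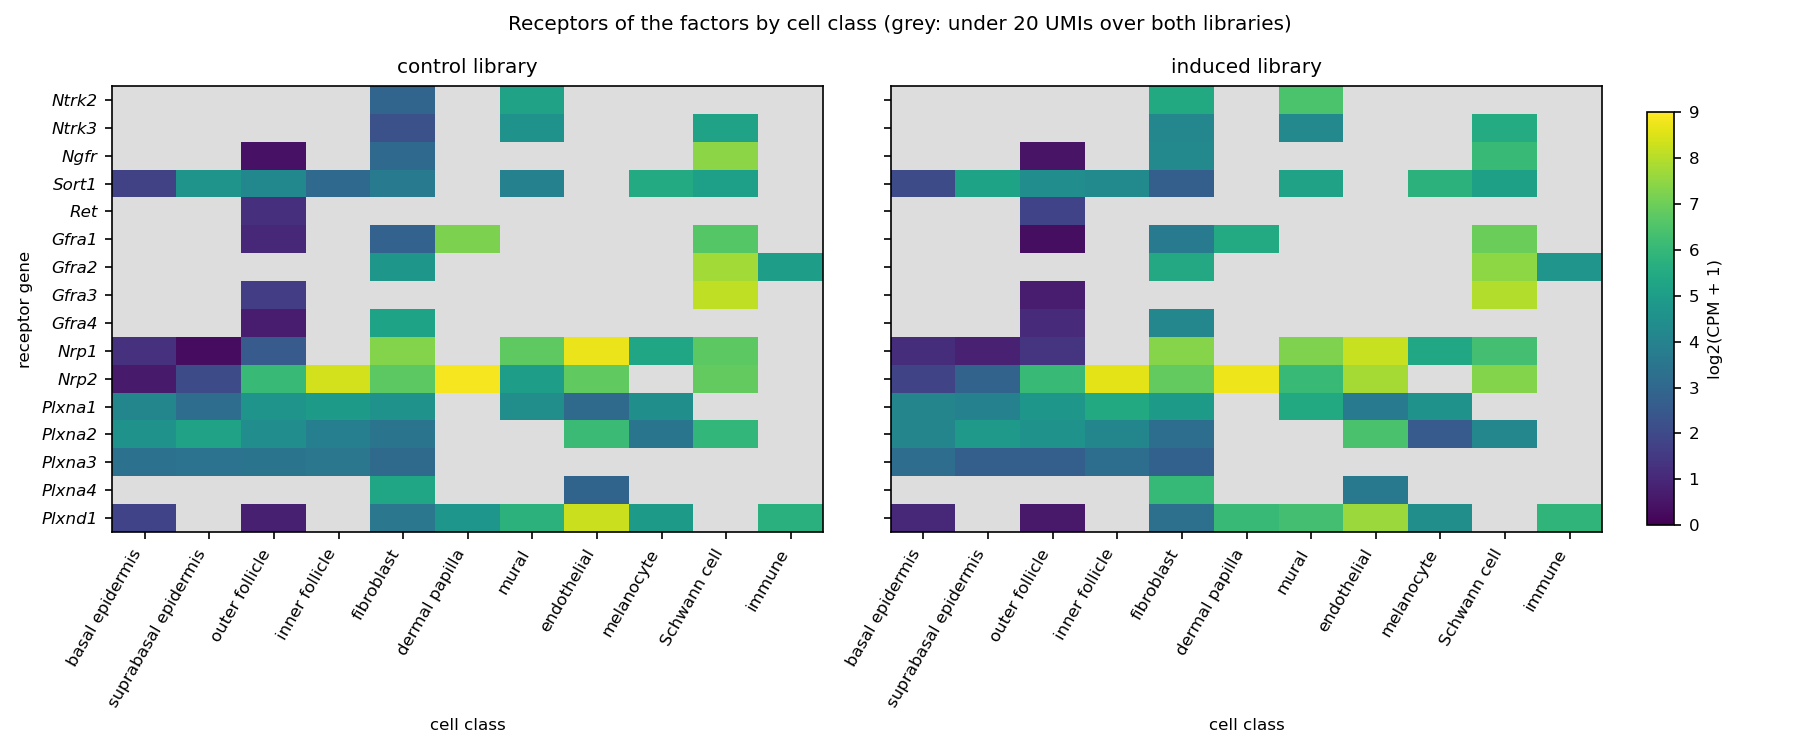
Level of 16 receptor genes (vertical axis) in 11 cell classes (horizontal axis) in the control (left) and induced (right) library, as log2(CPM + 1) by colour; grey marks under 20 UMIs over both libraries. Gfra1, Gfra2 and Gfra3 stand out in Schwann cells, Nrp1 and Plxnd1 in endothelial cells, and Nrp2 in dermal papilla and inner follicle cells.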

How the data were processed

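The authors deposited raw UMI counts per gene and barcode for 1 control and 1 induced library, made with Cell Ranger 6.0.0 on mm10 per the submitters' processing notes. The annotation release and the cell-calling settings are not given in the sources used here. Barcodes with at least 1000 UMIs, at least 500 genes and under 15% mitochondrial UMIs were kept. Counts scaled to 10000 per cell were clustered (Scanpy 1.11.5, Leiden resolution 1.0, 2000 variable genes, 30 principal components, 15 neighbours) without the genes described here. Clusters were named from marker lists where at least 3 markers were detected in 25% of cells and raised 1.5-fold. The members, the gene lists and the naming thresholds were chosen with earlier results of these data known. UMIs were summed per library and class as CPM with exact Poisson 95% intervals; ratios have exact conditional binomial intervals and shares exact Clopper-Pearson ones. A fold against 0 used 3 UMIs. No test between groups was possible. All 7 members were named by symbol, and for each the 3 genes with the most similar levels. No doublets were removed: Scrublet's automatic threshold marked 3 control and 1 induced barcodes and was not usable, so the top 7% of scores were removed as an alternative. Scripts ran in Python 3.11.15 and were tested on simulated counts. Some pathway genes are not reported here.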

Additional observations from a re-analysis of the deposited data

Results flagged for a closer look

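Nrtn stood lower in the induced library over all epithelial cells (log2 ratio -0.33) and higher over all dermal cells (0.63), so that the sources moved in opposite directions. With 1 library per group the difference between the sources was not tested. In the epithelial clusters with at least 20% of their cells from each library the ratio was 0.33, in the same direction as in the dermis. Among these clusters, the thinned shares of cells with a Nrtn UMI in C9 and in C17 had ranges that overlap between the libraries.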

How the results depend on the processing

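No paired analysis was possible because each group had 1 library and the groups share fewer than 2 replicate numbers. Of the log2 ratios of the 7 factors over epithelial or dermal cells under alternatives, 100 moved by less than the main value's counting interval, 23 moved further and 3 changed sign with a called value. Of those within classes 116 stayed within it and 27 moved further, and of the shares of cells 115 and 53. The comparisons within clusters common to both libraries, without C16 and under 2000 CPM of keratins in dermal cells were chosen after seeing the data. Within the common clusters the epithelial ratios were 0.63 for Bdnf, 2.10 for Gdnf (2 and 7 UMIs), 0.33 for Nrtn, -3.87 for Sema3a, -0.44 for Sema3e and 1.71 for Tac1 (3 and 8 UMIs), and the dermal ones 0.38 for Bdnf, 1.38 for Nrtn, 0.16 for Sema3a and -1.88 for Tac1. Without C16 the dermal ratios were 0.38, 1.36, 0.14 and -1.83 in the same order. As UMIs per cell rather than CPM, the epithelial ratios were 0.65 for Bdnf, -1.19 for Ntf3, -0.066 for Nrtn, -1.40 for Sema3a and -0.54 for Sema3e, and the dermal ones -0.86 for Bdnf, 0.095 for Nrtn and -1.84 for Sema3a. Dermal cells low in keratin gave -0.84 for Bdnf and -1.25 for Sema3e. Epithelial Nrtn was -0.38 with the top doublet scores removed and -0.25 with the median gene set to equal levels. Control Sema3e was 4.46 higher in epithelial than dermal cells on the log2 scale after removing those doublets, against 3.30. With at least 100 UMIs per gene, 1193 genes were higher in epithelial cells (1862 with 20 UMIs), 574 higher in dermal cells (1124) and 668 lower in dermal cells (1019), since fewer genes were counted. Causes of the other changes were not tested. Dermal depth limited Gdnf and Sema3e, with 22 and 17, and 29 and 15 UMIs.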
